A study of Mus musculus with 8 samples.

Results

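Connexin and pannexin genes were examined in mouse epidermis with and without *Rora*. The 6 members were the connexins *Gjb2*, *Gjb5*, *Gjb6* and *Gja1* and the pannexins *Panx1* and *Panx3*, taken by symbol from a table of 55416 Ensembl genes through the GENCODE mouse annotation. All 6 were among the 13147 genes that passed a filter on low counts. RNA-seq was done on dorsal epidermis peeled from the skin of mice at postnatal day 4 (P4), and the labels give 4 libraries as WT, called control here, and 4 as a knockout of *Rora* in the epidermis (RoraEKO). RORα, the product of *Rora*, is a nuclear receptor that acts as a transcription factor. RoraEKO mice carried *Rora* flox/flox and K14-Cre, in which the promoter of *KRT14*, a keratin gene of basal keratinocytes, drives the Cre recombinase. Control mice were littermates, and their floxed and Cre alleles are not given in the sources used here. The study counts its replicates per genotype as mice, while the labels do not tie each library to an animal, and the p-values measure the spread between these libraries.

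Connexins form gap junctions. Rings of connexin subunits in neighbouring cells dock to each other and make channels through which ions and small metabolites pass from cell to cell. Keratinocytes of different epidermal layers and of the hair follicle carry different sets of connexins, and inherited changes in *GJB2* and *GJB6* cause human skin disease or deafness. Pannexins form channels in the membrane of a single cell, through which ATP leaves the cell and acts on purinergic receptors.

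Library totals ran from 17286903 to 26705533 counts, and levels are given as counts per 1000000 counts of a library scaled with TMM factors (CPM). The targeted gene did not separate the genotypes at the level of whole-gene counts, since *Rora* was between 158 and 309 CPM in the control libraries and between 154 and 237 CPM in the RoraEKO libraries. The genotype of a library therefore rests on its label. In every library the spinous keratinocyte markers summed to 44452 CPM or more and the granular ones to 7234 CPM or more. The basal keratinocyte markers were lower, at 247 to 596 CPM in control and 270 to 1198 CPM in RoraEKO. All 5 endothelial markers were too low to be tested, with a summed level of 3.23 CPM at most. Controls C1 and C6 held *Xist* RNA, at 416 and 527 CPM, and the other 6 libraries held 1 count of it at most. *Ddx3y*, a gene of the Y chromosome, had 0 counts in controls C1 and C6 and 309 to 534 counts in the other 6 libraries. By these 2 genes C1 and C6 were female and the other 6 libraries male, so sex was not balanced between the genotypes. All 3 stress keratins (*Krt6a*, *Krt6b* and *Krt16*) were past the cutoffs as higher in RoraEKO, with a summed level of 121 to 199 CPM in the control libraries and of 1140 to 3076 CPM in the RoraEKO libraries. Fits that take *Xist* into account are given beside the results below, and the part of the other differences between libraries in them was not tested.

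Of the 6 members, 1 was lower in RoraEKO past the cutoffs and 0 were higher. A gene was called where its fold change was over 1.5 and its Benjamini-Hochberg adjusted p over all genes tested was under 0.05 in the quasi-likelihood test of edgeR. Among all genes tested, 3.22% were called lower and 2.3% were called higher. DESeq2 also called 0 members higher, and 0 members had a higher level at an unadjusted p under 0.05. The median log2 fold change of the 6 members was -0.11, and that of all genes tested was -0.04.

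*Gjb5* encodes Cx31.1, a connexin of stratified epithelia such as the epidermis, and was the member that fell. It lies at chr4:127248602-127252001 of GRCm39 on the minus strand. Its level was 149, 196, 159.9 and 185 CPM in controls A1, B1, C1 and C6. In RoraEKO libraries A3, B4, C2 and C3 it was 105, 101, 111 and 92.5 CPM. Every RoraEKO library was below every control library, and the highest RoraEKO library (C2) was at 111 CPM against 149 CPM in the lowest control (A1). Genotypes did not overlap, in either direction, for 12.9% of the genes tested, and *Gjb5* was the one member among the 6 without overlap. The mean fell from 172 ± 21.9 to 102 ± 7.61 CPM (SD, n = 4 each), which is -0.75 ± 0.107 (SE) on the log2 scale with a 95% interval of -1.04 to -0.47 (adjusted p = 0.0079, edgeR quasi-likelihood test). In bulk epidermis a smaller number of cells that make the RNA and less RNA in each cell cannot be told apart. The genotypes also separated for the summed level of 5 spinous keratinocyte markers, which was between 44452 and 69960 CPM in control and between 85417 and 106543 CPM in RoraEKO, with 0 of the 5 genes past the cutoffs in the edgeR quasi-likelihood test, and their part in the level of *Gjb5* was not tested.

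The call of *Gjb5* held when each of the 8 libraries was left out in turn, with log2 fold changes between -0.82 and -0.68. Within the first letter of the sample titles, whose meaning the labels do not give, RoraEKO was lower by 0.50 (A), 0.95 (B) and 0.76 (C) on the log2 scale. In the 6 libraries without *Xist* expression, 2 control and 4 RoraEKO, the log2 fold change was -0.70 and the adjusted p was 0.0764 (edgeR quasi-likelihood test), so that the gene did not pass there. It passed when *Xist* was a covariate, at an adjusted p of 0.0373 in the same test. Over all 18 alternatives its adjusted p ran from 1.57e-05 to 0.0764.

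**Figure D1:**
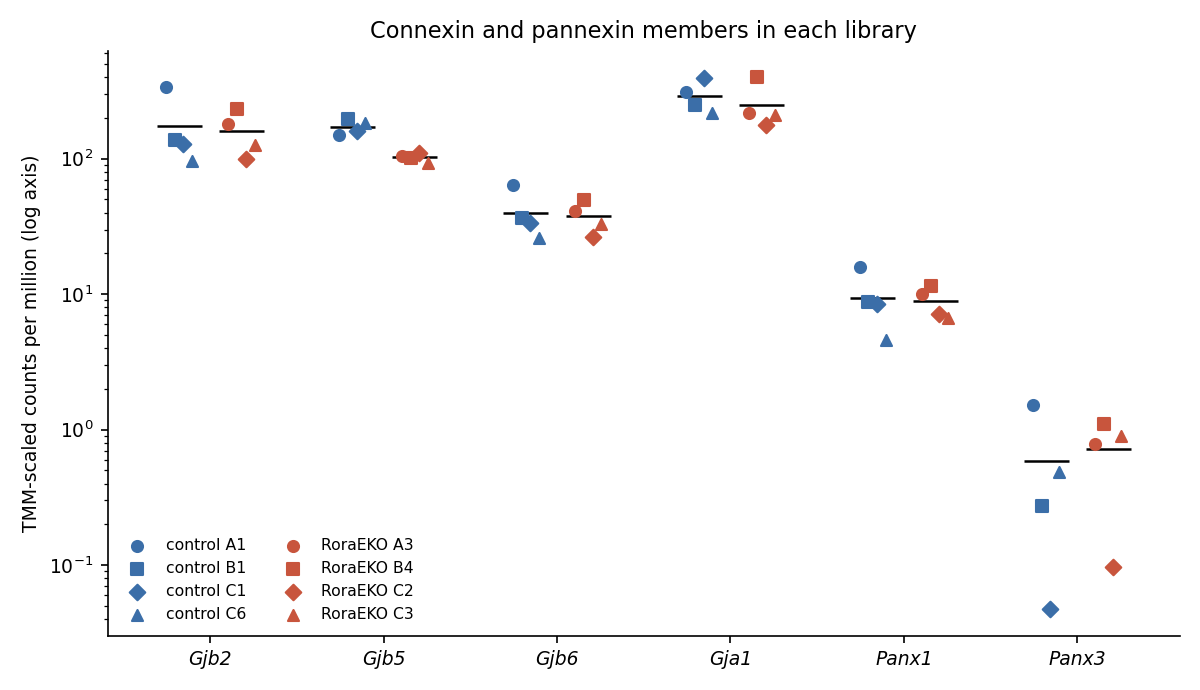
Level of each member in every library, in TMM-scaled CPM on a log axis. Blue points are the 4 control libraries, red points are the 4 RoraEKO libraries, shapes name the library, and black lines are group means. The points of the genotypes separate for *Gjb5* (149 to 196 against 92.5 to 111 CPM) and overlap for the other 5 members.

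*Gja4* (Cx37), best known from the endothelium of blood vessels, lies on the minus strand of chromosome 4 as *Gjb5* does, at chr4:127205214-127207851 of GRCm39, and was far less abundant. Its level was 3.5, 5.03, 4.36 and 4.77 CPM in controls A1, B1, C1 and C6. RoraEKO libraries A3, B4, C2 and C3 were at 1.57, 0.534, 2.12 and 2.15 CPM, all below the controls. Such a separation, in either direction, was seen for 12.9% of the genes tested. The log2 fold change of *Gja4* was -1.47 with an adjusted p of 0.0522 (edgeR quasi-likelihood test), and 8 of 18 alternatives called it, with adjusted p from 0.00376 to 0.219. It did not pass with *Xist* as a covariate (log2 fold change -1.42, adjusted p = 0.149, same test). Nor did it pass in the 6 libraries without *Xist* expression (log2 fold change -1.38, adjusted p = 0.219, same test). It passed with the title letter as a block (log2 fold change -1.56, adjusted p = 0.0288, same test). Within the letters the log2 differences were -1.12 (A), -3.03 (B) and -1.06 (C). The 5 endothelial markers had summed levels of 0.273 to 0.875 CPM in the control libraries and 0.37 to 3.23 CPM in the RoraEKO libraries, too low to be tested, and their part in the level of *Gja4* was not tested. Connexin genes are paralogs, so reads could be split between them. An annotated noncoding gene on the opposite strand overlaps exons of *Gja4*, and whether strand was used in counting is not given in the sources used here.

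The sequence in front of 3 member genes is shown because RORα binds DNA at sites built around AGGTCA. Promoter windows were taken from RefSeq on GRCm38.p6, which holds a window for 5 of the 6 members, and the 250 bases before the start were searched for AGGTCA on both strands. Each sequence runs 5′ to 3′ on the strand of the gene, and capitals mark AGGTCA or its reverse complement. The windows of *Gjb5* at chr4:127358165-127358414, of *Gjb2* at chr14:57104703-57104952 and of *Gjb6* at chr14:57133612-57133861 (GRCm38.p6, minus strand) read as follows.
Gjb5: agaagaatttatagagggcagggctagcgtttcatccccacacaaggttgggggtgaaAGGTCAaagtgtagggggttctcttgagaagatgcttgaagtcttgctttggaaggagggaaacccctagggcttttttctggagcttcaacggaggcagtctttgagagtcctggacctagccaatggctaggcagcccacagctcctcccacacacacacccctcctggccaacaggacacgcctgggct
Gjb2: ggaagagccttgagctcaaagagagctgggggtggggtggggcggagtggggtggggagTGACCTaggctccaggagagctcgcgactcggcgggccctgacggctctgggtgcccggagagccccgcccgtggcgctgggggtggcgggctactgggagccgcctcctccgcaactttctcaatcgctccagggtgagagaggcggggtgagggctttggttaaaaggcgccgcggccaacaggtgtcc
Gjb6: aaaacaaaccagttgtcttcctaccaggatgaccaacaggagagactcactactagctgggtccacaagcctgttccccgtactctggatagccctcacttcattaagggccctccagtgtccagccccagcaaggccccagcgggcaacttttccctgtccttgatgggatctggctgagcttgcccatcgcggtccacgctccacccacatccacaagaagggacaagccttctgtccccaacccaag

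The window of *Gjb5* holds the letters once on its own strand, with the first base at position -192 from the start. That of *Gjb2* holds them once on the opposite strand, at position -191, and the windows of *Gjb6*, *Gja1* and *Panx1* do not hold them. The same letters occur in 14% of the 32851 promoter windows of this length. Among the other tested genes of the family, 1 of 4 windows of *Gjb1* holds them and the windows of *Gja4* and *Gja3* do not. A match is a description of the letters in the window only, and *Gjb2*, which has one, did not pass the test described next.

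*Gjb2* and *Gjb6* encode Cx26 and Cx30, which are known from the hair follicle and from the epidermis of palms, soles and wounds, and which can form mixed channels. Both lie on the minus strand of chromosome 14 of GRCm39, *Gjb2* at chr14:57335919-57342240 and *Gjb6* at chr14:57360757-57371087. *Gjb2* was at 337, 138, 128 and 95.7 CPM in controls A1, B1, C1 and C6. It was at 181, 233, 99.2 and 126 CPM in RoraEKO libraries A3, B4, C2 and C3. Control A1 was the highest and control C6 the lowest of the 8 libraries, so that all RoraEKO values lay inside the control range. The means were 175 ± 109.5 and 159.9 ± 59.7 CPM (SD, n = 4 each), with a log2 fold change of -0.13 (95% interval -1.03 to 0.78, adjusted p = 0.93, edgeR quasi-likelihood test). The interval holds changes of the size seen in *Gjb5*. Over 18 alternatives the log2 fold change of *Gjb2* ran from -0.58 with *Xist* as a covariate to 0.41 without control A1, and the adjusted p from 0.459 to 0.992. It was -0.51 in the 6 libraries without *Xist* expression, -0.37 without RoraEKO B4 and 0.12 without RoraEKO C2.

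*Gjb6* was less abundant and ordered the libraries in much the same way. Its level was 63.9, 36.2, 33.5 and 26 CPM in controls A1, B1, C1 and C6, and 41.3, 49.8, 26.4 and 32.9 CPM in RoraEKO libraries A3, B4, C2 and C3. Control A1 was again the highest and control C6 the lowest. The log2 fold change was -0.09 (95% interval -0.73 to 0.56, adjusted p = 0.933, edgeR quasi-likelihood test), and over 18 alternatives it ran from -0.42 with *Xist* as a covariate to 0.24 without control A1. It was -0.36 in the 6 libraries without *Xist* expression, -0.25 without RoraEKO B4 and 0.12 without RoraEKO C2. The ratio of *Gjb2* to *Gjb6* counts ran from 3.68 to 5.27 over the 8 libraries, while *Gjb2* itself varied 3.52-fold among the controls alone. The mean log2 ratio was 2.04 ± 0.243 in control and 2.05 ± 0.154 in RoraEKO (SD, n = 4 each). The difference of 0.02 had p = 0.83 in an exact two-sided permutation test over the libraries, in which the smallest possible p is 0.0286. An annotated noncoding gene overlaps exons of *Gjb6* on the opposite strand.

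*Gja3* (Cx46, best known from the lens) lies beside *Gjb2* and *Gjb6* on chromosome 14 and varied in a similar way. It was at 47.4, 20.1, 28.1 and 12.7 CPM in controls A1, B1, C1 and C6 and at 38.1, 26.8, 19.7 and 24.2 CPM in RoraEKO libraries A3, B4, C2 and C3, a log2 fold change of 0.00 (adjusted p = 0.999, edgeR quasi-likelihood test) that ran from -0.33 with *Xist* as a covariate to 0.42 without control A1. Hair genes differed between libraries as well. The summed level of 7 markers of the hair shaft and matrix was 27277, 12589, 5015 and 3718 CPM in controls A1, B1, C1 and C6, and 18344, 15393, 7329 and 8011 CPM in RoraEKO libraries A3, B4, C2 and C3. Control A1 was the highest and control C6 the lowest for these markers too. None of the 7 hair markers passed the cutoffs between genotypes, and their part in the levels of *Gjb2*, *Gjb6* and *Gja3* was not tested.

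**Figure D2:**
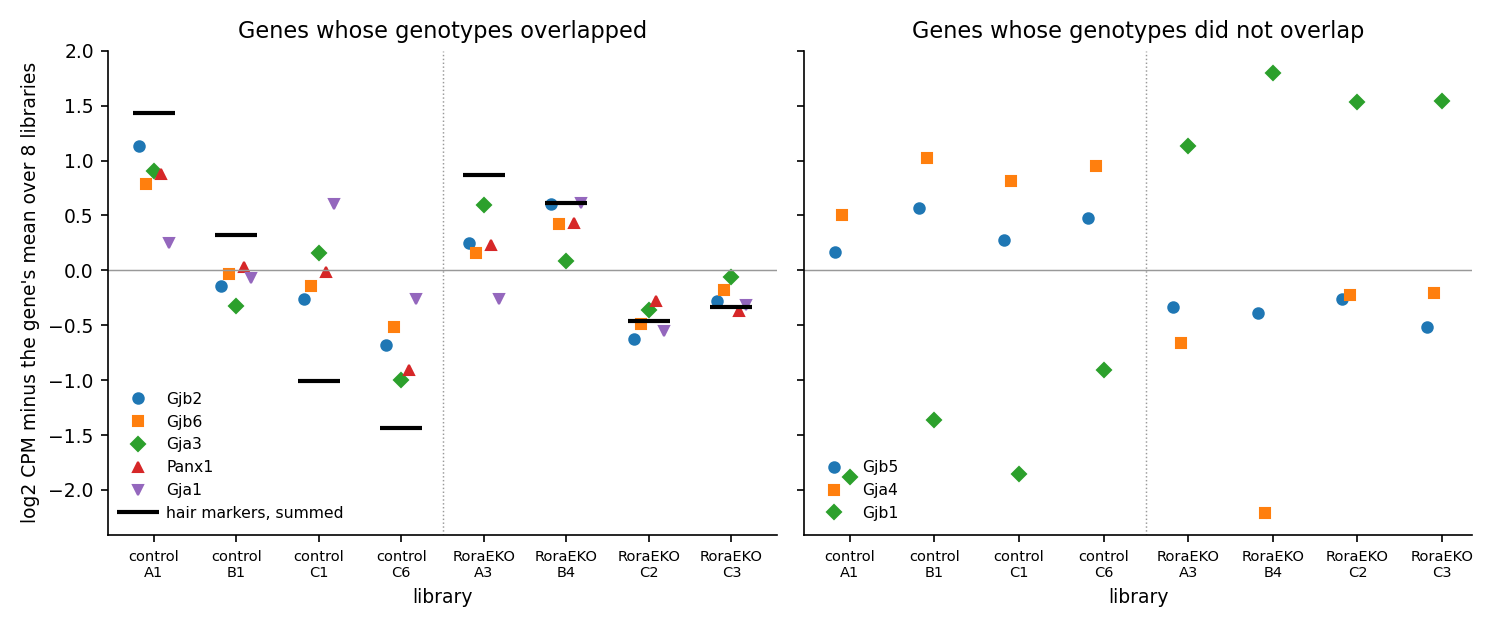
Log2 CPM of each gene minus its own mean over the 8 libraries, by library. The left panel holds *Gjb2*, *Gjb6*, *Gja3*, *Panx1* and *Gja1* with the summed hair markers as black bars, and the right panel holds *Gjb5*, *Gja4* and *Gjb1*. Control A1 is the highest and control C6 the lowest library for *Gjb2*, *Gjb6*, *Gja3* and *Panx1*, while the genotypes separate in the right panel, with RoraEKO lower for *Gjb5* and *Gja4* and higher for *Gjb1*.

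*Gja1* encodes Cx43, the most widely expressed connexin, which in epidermis is found in basal and lower suprabasal layers. It lies at chr10:56253241-56278609 of GRCm39 on the plus strand. Its level was 309, 248, 396 and 218 CPM in controls A1, B1, C1 and C6, and 217, 399, 178 and 209 CPM in RoraEKO libraries A3, B4, C2 and C3. RoraEKO B4 stood above the other RoraEKO libraries and at the level of the highest control, C1. The means were 292.5 ± 78.4 and 250.5 ± 100.3 CPM (SD, n = 4 each), with a log2 fold change of -0.22 (95% interval -0.85 to 0.40, adjusted p = 0.77, edgeR quasi-likelihood test). Without RoraEKO B4 the log2 fold change was -0.54 and the adjusted p was 0.256 in the same test, the lowest of 18 alternatives, and without RoraEKO C2 the log2 fold change was -0.02, the nearest to 0. It was -0.16 with *Xist* as a covariate and -0.09 in the 6 libraries without *Xist* expression.

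The basal keratinocyte markers had their highest summed levels in the same libraries. Their sum was 583, 418, 596 and 247 CPM in controls A1, B1, C1 and C6, and 318, 1198, 270.0 and 379 CPM in RoraEKO libraries A3, B4, C2 and C3. RoraEKO B4 and control C1 were the highest of the 8 libraries for this sum, as they were for *Gja1*, and none of the 6 basal markers passed the cutoffs between genotypes. RoraEKO B4 was also the highest library for the stress keratins, at 3076 CPM against 1338 CPM or less in the other RoraEKO libraries. Whether either set of markers has a part in the level of *Gja1* was not tested. Exons of *Gja1* overlap an annotated noncoding gene on the opposite strand.

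The pannexins were expressed at low levels. *Panx1*, the pannexin found in most tissues and a channel for the release of ATP, lies at chr9:14913424-14956813 of GRCm39 on the minus strand. It was at 15.8, 8.74, 8.47 and 4.58 CPM in controls A1, B1, C1 and C6, and at 10.1, 11.6, 7.08 and 6.64 CPM in RoraEKO libraries A3, B4, C2 and C3. As for *Gjb2*, the highest and the lowest library were controls A1 and C6. The log2 fold change was -0.09 (95% interval -0.86 to 0.68, adjusted p = 0.942, edgeR quasi-likelihood test), and over 18 alternatives it ran from -0.49 with *Xist* as a covariate to 0.29 without control A1. It was -0.42 in the 6 libraries without *Xist* expression, -0.29 without control C6, -0.25 without RoraEKO B4 and 0.07 without RoraEKO C2. An annotated noncoding gene overlaps exons of *Panx1* on the opposite strand.

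*Panx3*, which is known from bone, cartilage and skin, lies at chr9:37571198-37580531 on the minus strand and was near the limit of detection. It had 40, 5, 1 and 13 counts in controls A1, B1, C1 and C6 and 12, 27, 2 and 18 counts in RoraEKO libraries A3, B4, C2 and C3. Control C1 and RoraEKO C2 were below 3 counts, the floor used here, which corresponds to 0.113 to 0.196 CPM and covers counting error only. The log2 fold change was 0.27 with a 95% interval from -1.61 to 2.15 (adjusted p = 0.927, edgeR quasi-likelihood test). The interval holds changes in both directions. Without control A1, the library with the most counts, the log2 fold change was 1.36 and the adjusted p was 0.38, the lowest of 17 alternatives, and with *Xist* as a covariate the log2 fold change was -0.34, the lowest of them. It was -0.28 in the 6 libraries without *Xist* expression. Of 6 bone and cartilage markers 1 was tested (*Sox9*), and *Sp7*, *Bglap* and *Acan* were at 3 counts or fewer in every library.

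**Figure D3:**
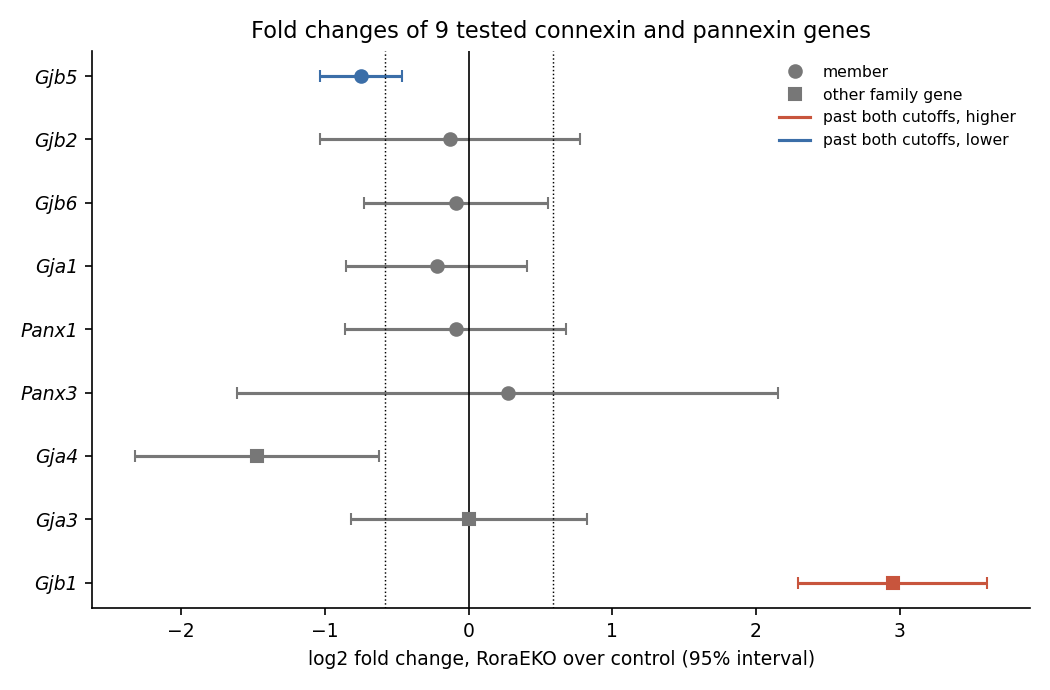
Log2 fold change of RoraEKO over control for 9 tested genes of the family, with the 95% interval of the edgeR quasi-likelihood fit. Circles are members and squares are other genes, dotted lines mark a fold change of 1.5, and colour marks genes past both cutoffs. *Gjb5* (-0.75) is past them as lower and *Gjb1* (2.95) as higher.

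Levels of different genes were compared after division by the summed length of the exons, as CPM per kb. In the control libraries *Gjb5* came first, at 98.6 ± 12.5 CPM per kb. *Gjb2* followed at 47.0 ± 29.5, *Gja1* at 23.8 ± 6.37 and *Gjb6* at 10.2 ± 4.22 CPM per kb (SD, n = 4 each). *Panx1* was at 1.41 ± 0.699 and *Panx3* at 0.17 ± 0.19 CPM per kb. *Gjb5* was above *Gjb2* in 6 of 8 libraries and *Gjb2* above *Gja1* in 8 of 8, and both pairs had ranges that overlapped within each genotype. The ranges of *Gja1* and *Gjb6*, of *Gjb6* and *Panx1* and of *Panx1* and *Panx3* did not overlap. When the longest transcript was used as the length, *Gja1* (51.2 CPM per kb in control) came before *Gjb2*, and was above it in 6 of 8 libraries.

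In RoraEKO the same order held by exon length, with *Gjb5* at 58.6 ± 4.35 and *Gjb2* at 43.1 ± 16.1 CPM per kb (SD, n = 4 each). Shares were taken of the summed level per length of the 4 member connexins. *Gjb5* took 56.2 ± 12.5% of this sum in control and 45.7 ± 9.09% in RoraEKO (SD, n = 4 each). The shares of *Gjb2* were 24.9 ± 11.4% and 31.9 ± 6.17%, those of *Gja1* were 13.4 ± 3.96% and 15.1 ± 3.12%, and those of *Gjb6* were 5.52 ± 1.39% and 7.22 ± 0.779%. The ranges of the genotypes overlapped for all 4 genes, and shares of one sum are not independent of each other. In control A1 *Gjb2* took 41.8% of the sum and *Gjb5* 39.2%, while in control C6 these shares were 16.6% and 67.8%.

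**Figure D4:**
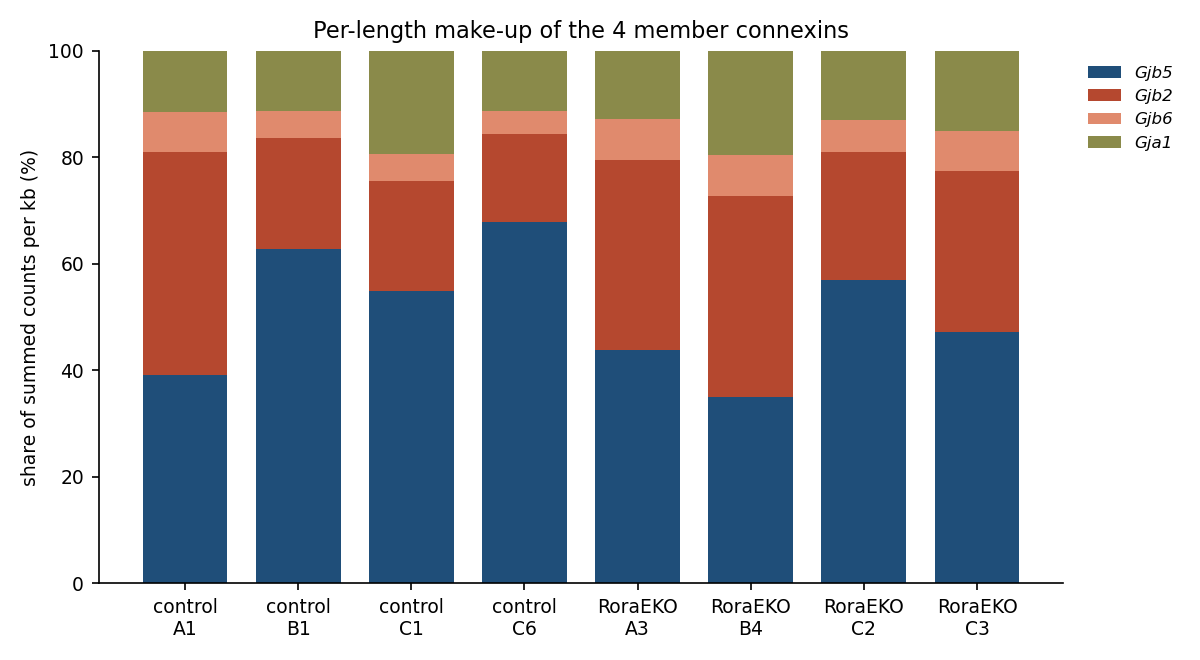
Share of each member connexin in the summed counts per kb of exon of the 4 member connexins, in percent, for the 4 control and 4 RoraEKO libraries. Each bar adds to 100%. *Gjb5* is the largest segment except in control A1 and RoraEKO B4, where *Gjb2* takes 41.8% and 37.9% against 39.2% and 34.9%.

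Of 14 other genes of the family, 3 were tested (*Gja3*, *Gja4* and *Gjb1*), and 1 of these passed the cutoffs, *Gjb1* as higher. Among all genes tested 2.3% were called higher and 3.22% lower. *Gjb1* encodes Cx32, best known from liver and from myelinating cells, and lies at chrX:100419984-100429547 of GRCm39. It was at 0.419, 0.601, 0.426 and 0.826 CPM in controls A1, B1, C1 and C6 and at 3.39, 5.38, 4.48 and 4.49 CPM in RoraEKO libraries A3, B4, C2 and C3. Every RoraEKO library was above every control library, and genotypes did not overlap, in either direction, for 12.9% of all genes tested. The mean level rose to 4.44 ± 0.814 CPM from 0.568 ± 0.192 CPM (SD, n = 4 each), with a log2 fold change of 2.95 ± 0.241 (SE; adjusted p = 0.000558 in the edgeR test). *Gjb1* passed in all 17 alternatives in which it was tested, among them the 6 libraries without *Xist* expression and each fit with 1 library left out. Even in RoraEKO its level per kb, 1.4 ± 0.256 CPM per kb (SD, n = 4), was far below the 58.6 CPM per kb of *Gjb5*.

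Genes that work with the channels were read from lists. Of 17 genes for partners of connexins, such as the scaffold *Tjp1*, the kinase *Src* and the cadherin *Cdh1*, 15 were tested and 0 passed the cutoffs in the quasi-likelihood test of edgeR. Among all genes tested 2.3% were called higher and 3.22% lower, so that 0 of 15 is near these shares. DESeq2 called 0 as well, and 2 had an unadjusted p under 0.05. The smallest adjusted p was that of *Nedd4*, a ubiquitin ligase that acts on Cx43, at 0.216 (log2 fold change -0.32, 61.5 ± 7.98 against 49.3 ± 4.45 CPM, SD, n = 4 each, same test). *Cdh1* was the 1 partner whose genotypes did not overlap, at 382 to 513 CPM in control and 335 to 373 CPM in RoraEKO. Its log2 fold change was -0.31 (adjusted p = 0.271, same test), and genotypes did not overlap for 12.9% of all genes tested. The median log2 fold change of the 15 genes was -0.05, near the -0.04 of all genes tested.

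Of 30 genes for ATP and purinergic signalling, the receptors for released ATP and the enzymes that break it down, 18 were tested, 2 passed as higher and 0 as lower. Among all genes tested 2.3% were called higher and 3.22% lower. The median log2 fold change of the 18 genes was 0.20, against -0.04 over all genes tested. *Nt5e*, the ecto-enzyme that turns AMP into adenosine, was at 14.96, 7.27, 4.73 and 9.42 CPM in controls A1, B1, C1 and C6 and at 20.9, 24.6, 34.1 and 30.5 CPM in RoraEKO libraries A3, B4, C2 and C3. All RoraEKO libraries were above the controls, and genotypes did not overlap for 12.9% of all genes tested (log2 fold change 1.59 ± 0.378 (SE), adjusted p = 0.0175 in the edgeR test). *P2ry1*, a receptor for ADP, was between 2.36 and 5.59 CPM in control and between 7.31 and 8.69 CPM in RoraEKO (log2 fold change 0.98 ± 0.266 (SE), adjusted p = 0.0466 in the edgeR test). Neither gene passed without control B1, without RoraEKO C3, with *Xist* as a covariate or in the 6 libraries without *Xist* expression. Without control C6 or RoraEKO A3, B4 or C2, *Nt5e* passed and *P2ry1* did not. *P2rx7*, an ATP-gated channel named here after its values were seen, was between 0.328 and 1.65 CPM in control and between 1.11 and 4.54 CPM in RoraEKO. Its genotypes overlapped and it did not pass (log2 fold change 1.67, adjusted p = 0.119 in the edgeR test), but 3 alternatives called it.

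For the 5 members with a mean of 1 CPM or more, which leaves out *Panx3*, the genes outside the family whose log2 CPM was most like that of a member over the 8 libraries are given as a description. The points share genotype and the library differences above, and values are Pearson's r over 8 libraries. For *Gjb5* they were *Chrnb4* (0.991), *Cds1* (0.985) and *Bnip3* (0.985), and 93 of the genes tested had an r above 0.95 with it. *Chrnb4* had a mean of 1.31 CPM in control and of 0.073 CPM in RoraEKO, which is under the floor of 3 counts, so that its r rests on values near 0 in RoraEKO. For *Gjb2* they were *Il11ra1* (0.99), *Fads3* (0.988) and *Manbal* (0.988), with 69 genes above 0.95. For *Gjb6* they were *Il11ra1* (0.995), the hair gene *Krtap29-1* (0.989) and *Ttyh3* (0.988), with 68 genes above 0.95. For *Gja1* they were *Itga6* (0.987), an integrin of basal keratinocytes, *Prpf31* (0.978) and *Slc19a1* (0.974), with 6 genes above 0.95. For *Panx1* they were *Lyg2* (0.987), *Puf60* (0.985) and *Anapc5* (0.981), with 45 genes above 0.95.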

How the data were processed

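RNA-seq libraries were made from total RNA of P4 dorsal epidermis, 4 control and 4 RoraEKO. Per the paper's methods and the submitters' processing notes, the authors trimmed read pairs with Skewer, aligned them to GRCm39 with STAR 2.5.3a and estimated counts per gene with RSEM. The values the authors deposited are these expected counts of 55416 genes, not scaled for library size or gene length, and 2.99% of the values were not whole. The annotation release and the strand setting of the counting are not given in the sources used here. Each column was tied to its library by the sample title.

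Expected counts were rounded to whole numbers. Symbols, positions and exon lengths came from GENCODE M39, in which 667 identifiers were not found. After filterByExpr and TMM scaling, genotypes were compared with edgeR 4.0.16 (R 4.3.3), in the legacy form of its quasi-likelihood test and with no covariates. Calls required a fold change over 1.5 and an adjusted p under 0.05. Standard errors (SE) were computed between genotype means of log2 CPM with a prior count of 2. RefSeq promoter windows were on GRCm38.p6, and no RefSeq coordinates were mixed with those of GRCm39. The members, gene lists, marker lists (basal, spinous and granular keratinocyte, stress keratin, hair, sebocyte, fibroblast, endothelial, melanocyte, leukocyte, muscle, bone and cartilage) and tests were chosen with earlier results of these data known. Named genes were all members, other tested genes of the family, genes of the partner and purinergic lists past the cutoffs or else the one with the smallest adjusted p, and the 3 tested genes most correlated with each member whose own mean was 1 CPM or more. Other list genes are named as examples of a list (*Tjp1*, *Src* and *Cdh1*) or were chosen after their values were seen (*P2rx7*, *Panx2*, *Gjc3* and *Gjd3*). The values of *Cdh1* were also added after they were seen. Some genes of the family are not reported here, and shares per length were taken over the member connexins instead of all connexin genes as planned.

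Alternatives were RLE factors, library size alone, other count filters, DESeq2 1.42.0, the non-legacy quasi-likelihood and the likelihood ratio test, the title letter as a block, *Xist* as a covariate, the 6 libraries without *Xist*, no fold cutoff, another gene length and each library left out. The scripts were tested on simulated data. Plots were drawn with matplotlib 3.10.9.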

Additional observations from a re-analysis of the deposited data

How the results depend on the processing

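The call of *Gjb5* as the 1 lower member held in 17 of 18 alternatives, and in the 6 libraries without *Xist* expression the count of lower members was 0. The count of higher members was 0 throughout. The 1 call among 14 other genes of the family (*Gjb1*) became 2 with *Gja4* added under library size alone, a filter of at least 1 count, DESeq2, the non-legacy test, the likelihood ratio test and the title letter as a block. It became 0 with at least 10 counts in every library, and ran from 1 to 2 with 1 library left out, the higher without control A1 or RoraEKO B4. The 2 purinergic calls became 3 with DESeq2, the likelihood ratio test and the title letter as a block (*P2rx7* added), 1 with library size alone, 0 with *Xist* as a covariate and 0 in the 6 libraries without *Xist* expression, and ran from 0 to 2 with 1 library left out. The strict filter removes *Gjb1* from the test, and fits on fewer libraries hold fewer samples. The cause of the other changes was not tested. Partner genes had 0 calls under every alternative. Over all genes the calls ran from 147 higher and 167 lower in the 6 libraries without *Xist* expression upwards, with the most higher calls, 478, under DESeq2 and the most lower calls, 579, with the title letter as a block, against 302 and 423.

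With the longest transcript as gene length, the share of *Gja1* among the member connexins was 24.1% in control and 26.6% in RoraEKO, and that of *Gjb6* was 7.57% and 9.63%. The ratio of *Gjb2* to *Gjb6* did not pass with any library left out, with differences between -0.04 and 0.14 on the log2 scale. The genotypes share no replicate number, and the labels do not say what the title letter stands for, so the samples were not treated as pairs. With the title letter as a block, the adjusted p of *Gja4* was 0.0288 (edgeR quasi-likelihood test).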

Other observations

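A further 11 genes of the family were too low to be tested, and none was above 0.53 CPM in any library. Of these, 8 had 3 counts or fewer in every library and 5 had 0 counts throughout. *Panx2*, the remaining pannexin, had 2 to 3 counts in control and 3 to 11 in RoraEKO. The value of *Gjc3* was 6 counts at most and that of *Gjd3* was 4 counts at most.

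The remaining markers give the cell types beside which the connexin levels stand. The granular sum was 9746 to 15548 CPM in control and 7234 to 12086 CPM in RoraEKO, with 1 of 6 genes (*Hrnr*) called lower. Sebocyte markers summed to 84.6 to 223 CPM in control and 68.4 to 139.7 CPM in RoraEKO, melanocyte markers to 25.2 to 56.2 and 17.3 to 33.2 CPM, and leukocyte markers to 8.53 to 22.2 and 7.77 to 27 CPM. Fibroblast markers reached 10.4 CPM at most and muscle markers 9.06 CPM, and none of the tested markers of these lists passed the cutoffs.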
